A study of Homo sapiens with 6 samples.

Results

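The TAM family comprises the receptor tyrosine kinases TYRO3, AXL and MERTK and their secreted ligands GAS6 and PROS1 (protein S). The 5 genes were taken by symbol from a deposited table of 26228 rows, and each was present as a single row with a value in every library. They were selected on their FPKM values in the DON and vehicle libraries, which were already known, so that comparison is given for them as a description, without p-values. The libraries come from AsPC-1, an established cell line from a human adenocarcinoma of the pancreas, with 3 libraries of DON treatment and 3 of vehicle. DON, or 6-diazo-5-oxo-L-norleucine, resembles glutamine and inactivates glutamine-using enzymes. Both groups spent the 24 h of treatment in medium without serum, so serum withdrawal is common to all 6 libraries, and all come from a single line. The dose of DON is not given in the sources used here. Poly(A) RNA was sequenced as single 75 bp reads. The labels number the replicates without naming separate cultures, so error bars and p-values measure the spread between these libraries, which may be technical.

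TAM receptors sit in the plasma membrane and are switched on by GAS6 or PROS1. One end of each ligand carries glutamate residues that a vitamin K-dependent carboxylase modifies, and this end binds phosphatidylserine on dying cells or vesicles, while the other end binds the receptor. In macrophages and other phagocytes MERTK and AXL drive the uptake of dying cells, and in carcinomas AXL is known for links to motility, survival and drug resistance. GAS6, a high-affinity ligand of AXL, takes its name from growth arrest-specific gene 6, found in cells deprived of serum. PROS1 is also an anticoagulant of blood plasma and activates TYRO3 and MERTK but has little activity on AXL.

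In these libraries the ligand transcripts were lower in DON and the AXL transcript was higher, while MERTK and TYRO3 did not separate the groups. Values are in FPKM, a read density corrected for transcript length and library size, which allows levels of different genes to be set side by side. Fitted differences come from limma on log2(FPKM + 1), as DON minus vehicle, and understate changes of genes near or below 1 FPKM. All 5 genes passed the filter of at least 1 FPKM in at least 3 of 6 libraries, and each did so in all 6. By limma's adjusted p of 0.05, 2 members were lower in DON, 1 was higher and 2 did not pass, beside 38.9% of all 11471 tested genes that passed in either direction (20.6% lower and 18.3% higher). The groups did not overlap for 3 of the 5 members, beside 51.5% of all tested genes (26.5% lower and 24.9% higher). Because the members were selected with these values known, nothing is read from the counts. In bulk RNA, fewer cells of a kind and less RNA per cell cannot be told apart.

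**Figure D1:**
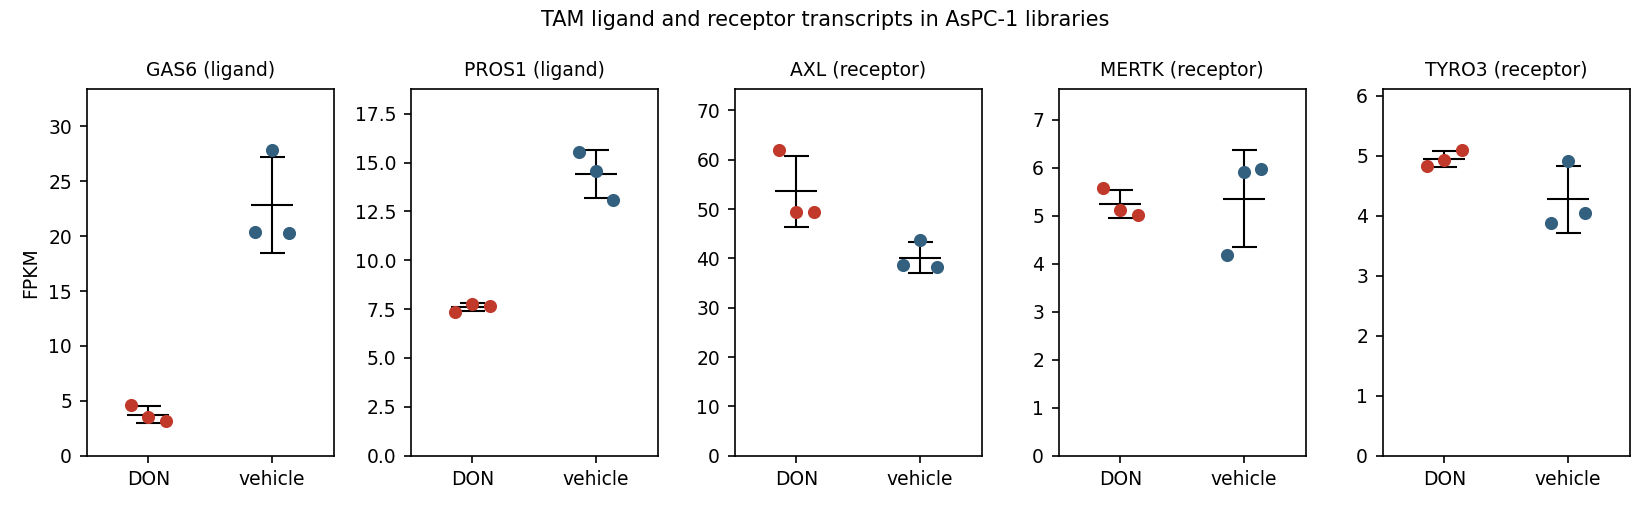
FPKM (vertical axes, each starting at 0) of the 2 ligands and 3 receptors in 3 DON libraries (left in each panel) and 3 vehicle libraries (right). Points are libraries, and bars show the mean ± SD; the groups are apart for GAS6, PROS1 and AXL and overlap for MERTK and TYRO3.

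GAS6 had 4.58, 3.52 and 3.13 FPKM in DON libraries 1, 2 and 3, against 20.4, 27.8 and 20.3 FPKM in vehicle libraries 1, 2 and 3. Every DON library lay far below every vehicle library, and vehicle 2 was the highest. The means were 3.74 ± 0.747 FPKM in DON and 22.8 ± 4.33 FPKM in vehicle (SD, n = 3 each), a ratio of 0.164, or 6.10-fold lower. The fitted difference was -2.33 ± 0.17 (SE), which ranked 16 from the lowest of the 11471 tested genes. The mean of GAS6 exceeded that of 20.2% of tested genes in DON and 66.6% in vehicle. Without any single library the difference stayed between -2.45 and -2.18. The libraries also differ along the second principal component, which separates DON 1, vehicle 1 and vehicle 2 from DON 2, DON 3 and vehicle 3. Within the first of these sets, where DON 1 was the only DON library, the ratio was 0.190. Within the second, where vehicle 3 was the only vehicle library, it was 0.164.

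A transcript that starts inside the GAS6 promoter and runs away from it gave low values in the same direction. RefSeq names it GAS6-DT, on the opposite strand to GAS6, and the deposited table lists it as GAS6-AS2. It had 0.0280, 0.0580 and 0.0311 FPKM in DON libraries, against 0.390, 0.276 and 0.332 FPKM in vehicle libraries. All DON values lay below all vehicle values, but every value was under 1 FPKM, so the gene was not tested. GAS6-AS1, an antisense RNA that overlaps GAS6 on the opposite strand in GENCODE 29, had 1.83, 1.17 and 1.64 FPKM in DON libraries and 0.588, 1.27 and 1.14 FPKM in vehicle libraries. These groups overlapped and the difference did not pass (0.36 ± 0.18 SE, limma adjusted p = 0.165). Whether the authors counted reads by strand is not given in the sources used here, so reads from GAS6 and GAS6-AS1 may not be fully separated.

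PROS1 had 7.37, 7.76 and 7.67 FPKM in DON libraries 1, 2 and 3, against 15.5, 14.6 and 13.1 FPKM in vehicle libraries 1, 2 and 3. The DON values lay close together and all below the vehicle values. The means were 7.60 ± 0.204 FPKM in DON and 14.4 ± 1.23 FPKM in vehicle (SD, n = 3 each), a ratio of 0.528. The fitted difference was -0.84 ± 0.09 (SE), which ranked 751 from the lowest. Within the library sets of the second principal component the ratios were 0.490 and 0.589. PROS1 has a pseudogene, PROS2P, which is not among the rows used here, so reads that fit both copies make the absolute level of PROS1 uncertain.

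The promoters of the members that differed are shown because the ligands moved the same way and AXL the opposite way. The sequences are the 250 bases before the transcript start, from RefSeq on GRCh38.p14, written 5′ to 3′ along the gene's own strand. They lie at chr13:113864077-113864326 (minus strand) for GAS6, chr3:93973897-93974146 (minus strand) for PROS1 and chr19:41218973-41219222 (plus strand) for AXL, and capitals mark the matches found. For AXL the window at the upstream start of 2 in the table is shown.
GAS6: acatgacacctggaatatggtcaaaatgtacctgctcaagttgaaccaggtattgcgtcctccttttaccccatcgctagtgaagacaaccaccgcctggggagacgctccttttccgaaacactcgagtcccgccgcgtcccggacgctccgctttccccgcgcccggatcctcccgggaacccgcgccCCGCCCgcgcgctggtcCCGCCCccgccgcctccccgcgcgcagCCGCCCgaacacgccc
PROS1: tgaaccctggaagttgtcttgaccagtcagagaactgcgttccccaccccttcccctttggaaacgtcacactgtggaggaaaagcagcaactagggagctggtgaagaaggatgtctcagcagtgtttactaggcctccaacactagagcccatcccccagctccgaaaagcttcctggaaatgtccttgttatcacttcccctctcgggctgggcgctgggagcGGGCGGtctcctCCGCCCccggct
AXL: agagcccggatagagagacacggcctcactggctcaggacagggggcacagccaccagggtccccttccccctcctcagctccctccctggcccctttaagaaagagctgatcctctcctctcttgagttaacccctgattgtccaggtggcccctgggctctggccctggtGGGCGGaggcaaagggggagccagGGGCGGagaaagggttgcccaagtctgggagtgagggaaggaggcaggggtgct
Both strands were searched for 9 motifs: the GC box GGGCGG, AP-1 TGANTCA, TEAD GGAATG, the amino acid response element TGATGNAA, the unfolded protein response element TGACGTG, the sterol response element TCACNCCAC, the CCAAT box CCAAT, the E-box CACGTG and the cell cycle element CHR TTTGAA. The E-box and the unfolded protein response element share letters, but no matches overlapped in these windows. All capitals above are GC boxes on either strand (GGGCGG or CCGCCC), with 3 in GAS6, 2 in PROS1 and 2 in AXL, and the other motifs had no match in these windows. The window at the second AXL start, which is not shown, had no GC box and 1 TEAD match. MERTK had 4 GC boxes and TYRO3 had 3 at its upstream start, together with 1 AP-1 match, while the window at its second start had no match. The GC box occurs in 42.6% of the 35116 RefSeq windows of the same length, AP-1 in 6.57% and TEAD in 11.9%. The GC box thus was present at the ligands, which were lower in DON, at the upstream start of AXL, which was higher, and at MERTK and the upstream start of TYRO3. Base composition was 66.8% G or C for GAS6, 57.6% for PROS1 and 64.4% for AXL, beside a median of 58.0% over all windows. It was 78.8% for MERTK and 80.0% at the upstream start of TYRO3, above the 90th percentile of all windows (75.2%). The windows at the second starts of AXL and TYRO3 had 54.4% and 58.8%. A match is a string of letters, and a missing match says only that these letters are not in the window.

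AXL was the most abundant member in both groups. It had 62.0, 49.5 and 49.4 FPKM in DON libraries 1, 2 and 3, against 38.6, 43.7 and 38.2 FPKM in vehicle libraries 1, 2 and 3. All DON values were above all vehicle values, with DON 1 the highest of the 6. The means were 53.6 ± 7.23 FPKM in DON and 40.2 ± 3.07 FPKM in vehicle (SD, n = 3 each), a ratio of 1.33. The fitted difference was 0.40 ± 0.12 (SE), which ranked 2081 from the highest. It was 0.30 without DON 1. DON 1 also had the strongest GC tilt of the 6 libraries (Spearman correlation of 0.503 across genes between its deviation from the group mean and transcript GC content, a description of genes that share the library). Deviations within a group balance each other, and DON 2 and DON 3 tilted the other way (-0.420 and -0.408). Whether the tilt bears on AXL was not tested. Within DON 1, vehicle 1 and vehicle 2 the ratio of AXL was 1.51, and within DON 2, DON 3 and vehicle 3 it was 1.29. AXL no longer met the call rule without DON 2, vehicle 1 or vehicle 3, or when no filter was applied.

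MERTK and TYRO3 were low and close to each other. MERTK had 5.58, 5.13 and 5.03 FPKM in DON libraries, against 4.18, 5.90 and 5.98 FPKM in vehicle libraries. The DON values lay between the lowest vehicle library and the other two. The means were 5.24 ± 0.296 FPKM in DON and 5.36 ± 1.02 FPKM in vehicle (SD, n = 3 each), and the fitted difference was -0.01 with a 95% interval of -0.34 to 0.31. TYRO3, the member best known from the nervous system, had 4.84, 4.92 and 5.10 FPKM in DON libraries, against 3.87, 4.92 and 4.05 FPKM in vehicle libraries. Vehicle 2 fell among the DON values and the other vehicle libraries lay below them. The means were 4.95 ± 0.132 FPKM in DON and 4.28 ± 0.559 FPKM in vehicle (SD, n = 3 each), with a fitted difference of 0.18 and a 95% interval of -0.08 to 0.43. These intervals do not show that the genes stayed the same. For MERTK the interval spans -0.34 to 0.31 on the fitted scale, and it measures only the spread between these libraries. The pseudogene TYRO3P stood at 0.01 FPKM, the lowest value in the table, in 5 libraries and at 0.0793 FPKM in vehicle 3.

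**Figure D2:**
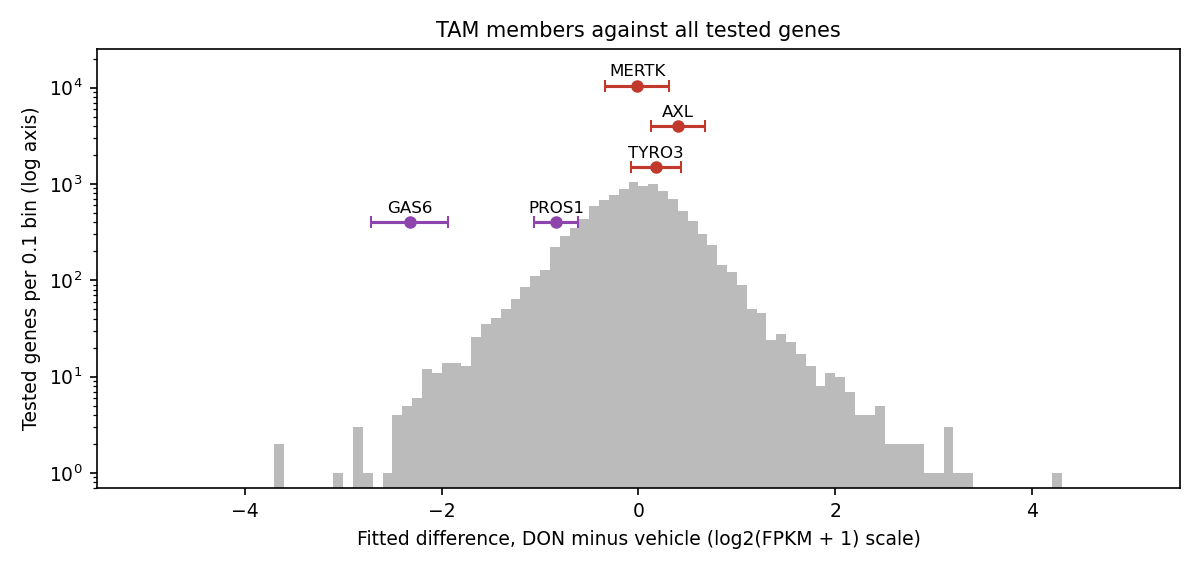
Number of tested genes (log axis) per bin of fitted difference, DON minus vehicle, on the log2(FPKM + 1) scale, with the 5 members and their 95% intervals drawn above (ligands violet, receptors red; their height has no meaning). GAS6 lies in the far lower tail at -2.33 and PROS1 at -0.84, while the receptors lie between -0.01 and 0.40.

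The order of levels differed between the groups. In DON it was AXL, PROS1, MERTK, TYRO3 and GAS6, and in vehicle it was AXL, GAS6, PROS1, MERTK and TYRO3. Neighbours in these orders had separate ranges over libraries, apart from MERTK and TYRO3, which overlapped in both groups. GAS6 thus stood last in DON and next to AXL in vehicle.

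Summed over both ligands, transcripts reached 11.3 ± 0.575 FPKM in DON and 37.2 ± 4.66 FPKM in vehicle (SD, n = 3 each), a ratio of 0.305. GAS6 made up 28.98% to 38.3% of this sum in DON and 56.7% to 65.6% in vehicle, so PROS1 was the larger part in every DON library and GAS6 in every vehicle library. The sum over the 3 receptors was 63.8 ± 7.42 FPKM in DON and 49.8 ± 4.17 FPKM in vehicle. AXL accounted for 83.0% to 85.6% of receptor transcripts in DON and 79.2% to 82.7% in vehicle, MERTK for 7.71% to 8.61% and 8.97% to 12.4%, and TYRO3 for 6.68% to 8.56% and 8.30% to 9.02%. The receptor mix thus differed far less between the groups than the ligand mix. The ratio of ligand to receptor transcripts was 0.165 to 0.190 in DON and 0.692 to 0.778 in vehicle. The ratio of AXL to GAS6 was 13.5 to 15.8 in DON and 1.57 to 1.90 in vehicle. All of these are sums and ratios of the values above, and so are no separate evidence.

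**Figure D3:**
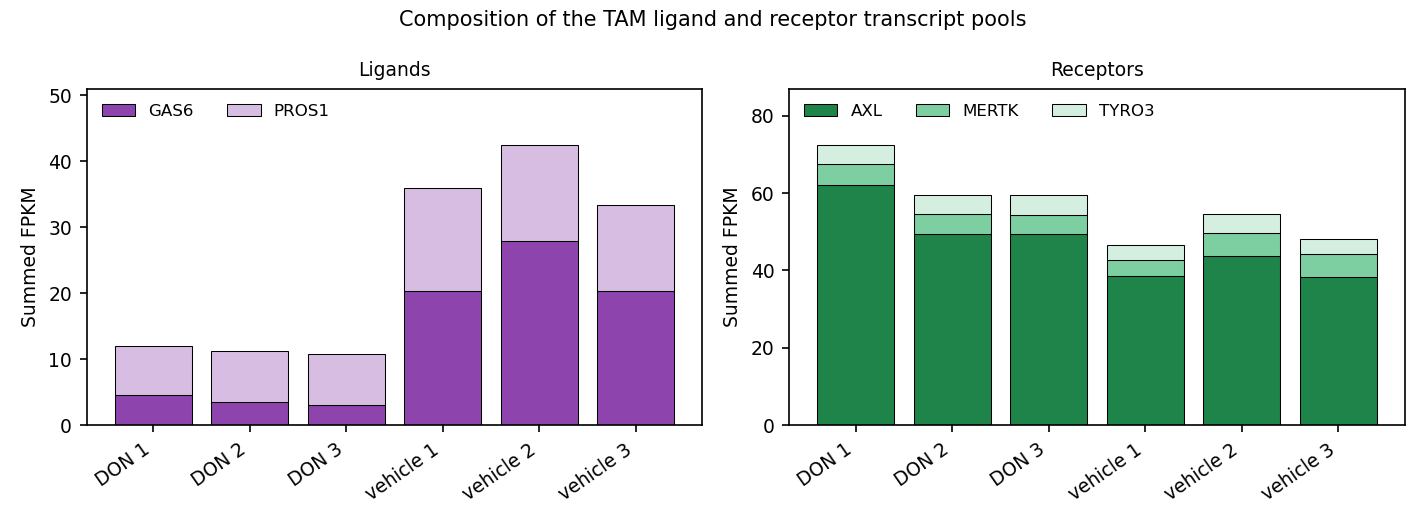
Summed FPKM of the ligands (left) and the receptors (right) in each library, DON libraries left of vehicle libraries, stacked by gene. The ligand sum is 10.8 to 11.9 FPKM in DON and 33.4 to 42.4 FPKM in vehicle, and AXL is the bulk of the receptor sum in all 6 libraries.

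The genes whose profiles over the 6 libraries lay nearest to each member were taken by the smallest root mean square difference of log2(FPKM + 1) after subtraction of the gene's mean, among the 8604 tested genes that averaged 5 FPKM or more. For GAS6 these were CENPF, a kinetochore protein of dividing cells, ACAT2, an enzyme of sterol synthesis, and LMNB1, a nuclear lamina protein, at differences of 0.173 to 0.176. For PROS1 they were IMPA1, which makes free inositol, SPTLC2, a subunit of the enzyme that starts sphingolipid synthesis, and MOSPD3, at 0.0281 to 0.0447. For AXL they were ZNRD1, a subunit of RNA polymerase I, AMBRA1, a regulator of autophagy, and ZNF696, at 0.0306 to 0.0355. MRPL24 of the mitochondrial ribosome was nearest to MERTK, at 0.0307. GAS6 had no gene as close to it as the other members had. It also had the largest residual SD of the members on the log2 scale (0.237, others 0.0859 to 0.179). The distances rest on the values by which the members were selected, so nothing is read from them.

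Other genes around the TAM family were drawn from 12 lists. Besides pathway genes, the lists hold genes outside the pathway, such as 55 other receptor tyrosine kinases. Together they hold 188 genes, of which 109 were tested. Of these, 20 were higher and 26 lower in DON (42.2%, beside 38.9% of all tested genes), with a median difference of -0.06 (all tested genes -0.01). The share called was thus near that of all genes. The counts per list below stand beside the same 38.9% of all tested genes, and nothing is read from them. The numbers were 12 higher and 17 lower without DON 2, 13 higher and 16 lower without vehicle 2, and 13 higher and 18 lower without DON 3.

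Among genes for the maturation of the ligands, 1 of 6 tested genes of the vitamin K cycle was higher and 0 lower (median 0.10). AIFM2, which can reduce vitamin K, rose to 13.2 ± 0.803 FPKM in DON, against 8.48 ± 0.159 FPKM in vehicle (limma adjusted p = 0.00224). GGCX, the carboxylase itself, stood at 6.34 ± 0.296 FPKM in DON and 7.36 ± 0.848 FPKM in vehicle (adjusted p = 0.211). VKORC1, the reductase that recycles vitamin K, stood at 48.1 ± 3.93 and 45.1 ± 1.60 FPKM in DON and vehicle (adjusted p = 0.456). Among 12 other proteins with the same carboxylated domain, 3 were tested, 1 was higher and 0 lower. That gene was PROC, the plasma protein C for which PROS1 acts as a cofactor. It had 25.5, 27.8 and 26.3 FPKM in DON libraries, against 17.8, 13.5 and 14.8 FPKM in vehicle libraries (limma adjusted p = 0.00245). PROC was thus higher in every DON library than in any vehicle library, the opposite direction to PROS1. Of other reported TAM ligands, TUB and TULP1 stood at 0.01 FPKM throughout. The galectin LGALS3 was abundant and variable, at 610 ± 180 FPKM in DON and 732 ± 255 FPKM in vehicle (adjusted p = 0.522).

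Of 4 further growth arrest-specific genes, 2 were tested, and they moved in opposite directions. The non-coding RNA gene GAS5 rose to 476 ± 23.7 FPKM in DON, against 345 ± 23.4 FPKM in vehicle (limma adjusted p = 0.00684). PMP22, also called GAS3, fell to 1.49 ± 0.557 FPKM in DON, against 3.29 ± 0.436 FPKM in vehicle (adjusted p = 0.0155). GAS1 and GAS2 stayed under 1 FPKM in every library.

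AXL and MERTK are cut from the cell surface by ADAM metalloproteases, and the remaining stub of AXL by gamma-secretase. Of 11 tested genes of this list 3 were higher and 2 lower (median 0.14). ADAM17 had 28.8, 24.5 and 22.0 FPKM in DON libraries, against 11.9, 16.6 and 11.7 FPKM in vehicle libraries (0.87 ± 0.16 SE, limma adjusted p = 0.00569). It was higher in every DON library. Its relative ADAM10 stood at 51.6 ± 3.06 FPKM in DON and 55.2 ± 1.19 FPKM in vehicle (adjusted p = 0.380). RHBDF2 and RHBDF1, the iRhom proteins that carry ADAM17 to the surface, both fell, RHBDF2 to 4.41 ± 0.442 FPKM in DON, against 10.1 ± 1.12 FPKM in vehicle (adjusted p = 0.000743). RHBDF1 was at 40.5 ± 3.25 and 49.0 ± 1.58 FPKM in DON and vehicle (adjusted p = 0.0466), and its call was lost without each library in turn, with the GC correction, and under other scalings. The gamma-secretase subunits APH1B and PSENEN rose, to 4.03 ± 0.422 and 55.1 ± 0.890 FPKM in DON, against 2.15 ± 0.166 and 43.9 ± 4.07 FPKM in vehicle (adjusted p = 0.00383 and 0.0283). The call of PSENEN was lost without DON 1, DON 2, DON 3 or vehicle 2.

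Of 12 tested genes that set phosphatidylserine exposure, which the ligands read, 0 were higher and 1 was lower (median -0.14). The flippase ATP8B1 fell to 5.38 ± 0.478 FPKM in DON, against 9.65 ± 0.871 FPKM in vehicle (limma adjusted p = 0.00219). Among other phosphatidylserine receptors and bridging proteins 4 of 15 were tested, with 0 higher and 3 lower (median -0.43). These were the scavenger receptor LRP1 (1.44 ± 0.215 FPKM in DON and 2.88 ± 0.479 FPKM in vehicle, adjusted p = 0.00934), the integrin ITGAV (77.1 ± 0.762 and 99.0 ± 2.93 FPKM, adjusted p = 0.00833) and the bridging protein MFGE8. MFGE8, which like GAS6 links phosphatidylserine to a surface receptor, had 2.62, 2.18 and 1.54 FPKM in DON libraries, against 3.25, 3.53 and 3.27 FPKM in vehicle libraries (adjusted p = 0.0358). Its call was lost without any library other than DON 1. In the engulfment machinery 1 of 8 was higher and 1 lower (median -0.03). The adaptor GULP1 rose to 124 ± 19.5 FPKM in DON, against 74.2 ± 7.90 FPKM in vehicle (adjusted p = 0.00652). DOCK1, an activator of the GTPase RAC1, stood at 9.69 ± 0.685 and 12.4 ± 1.15 FPKM in DON and vehicle (adjusted p = 0.0429), a call lost without any library other than vehicle 3.

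Signalling proteins next to the receptors moved both ways, with 4 of 18 higher and 6 lower (median 0.07). The kinase SRC rose to 34.9 ± 3.41 FPKM in DON, against 19.7 ± 1.07 FPKM in vehicle (limma adjusted p = 0.00115). CBLB, a ubiquitin ligase that acts on TAM receptors in mouse, rose to 4.23 ± 0.274 FPKM in DON, against 2.20 ± 0.881 FPKM in vehicle (adjusted p = 0.0284), a call lost without DON 2, DON 3 or vehicle 2. The phospholipase PLCG1 fell to 4.50 ± 0.525 FPKM in DON, against 8.97 ± 0.473 FPKM in vehicle (adjusted p = 0.00110). PIK3R1, the regulatory subunit that couples AXL to phosphoinositide 3-kinase, fell to 2.78 ± 0.246 FPKM in DON, against 5.67 ± 0.124 FPKM in vehicle (adjusted p = 0.000966).

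Of 55 other receptor tyrosine kinases 20 were tested, with 4 higher and 6 lower (median -0.34). FGFR4 fell to 8.76 ± 2.55 FPKM in DON, against 69.4 ± 12.0 FPKM in vehicle, while EGFR rose to 85.3 ± 2.89 FPKM in DON, against 43.8 ± 6.53 FPKM in vehicle (limma adjusted p = 0.000150 and 0.00123). FGFR3 and ROR1 fell to 0.440 ± 0.110 and 1.21 ± 0.245 FPKM in DON, against 2.38 ± 0.223 and 3.42 ± 0.280 FPKM in vehicle (adjusted p = 0.000515 and 0.00127). The other receptors called higher were MET, ERBB3 and INSR. Their calls were lost for MET without any library other than DON 3, for ERBB3 without DON 2, DON 3, vehicle 1 or vehicle 2, and for INSR without any library other than vehicle 2 or with a replicate block (adjusted p = 0.0538). No test set the TAM receptors against the other receptors.

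Transcription factors reported at the AXL promoter had 2 of 17 higher and 6 lower (median -0.23). The AP-1 members FOSL2 and FOSL1 rose, FOSL2 to 23.5 ± 3.60 FPKM in DON, against 9.21 ± 1.69 FPKM in vehicle (limma adjusted p = 0.00114). FOSL1 was at 25.8 ± 4.14 and 15.3 ± 4.40 FPKM in DON and vehicle (adjusted p = 0.0260). JUND, another AP-1 member, fell to 51.1 ± 14.6 FPKM in DON, against 84.7 ± 19.5 FPKM in vehicle, with overlapping groups (adjusted p = 0.0429). The calls of FOSL1 and JUND were both lost without DON 2, DON 3, vehicle 1 or vehicle 2. TEAD2, a partner of the coactivator YAP1, fell to 1.73 ± 0.391 FPKM in DON, against 4.56 ± 0.567 FPKM in vehicle (adjusted p = 0.00187). The coactivator WWTR1, a paralog of YAP1, fell to 14.2 ± 0.475 FPKM in DON, against 20.1 ± 1.18 FPKM in vehicle (adjusted p = 0.00516). TEAD3 was at 3.58 ± 0.432 and 5.08 ± 0.809 FPKM in DON and vehicle (adjusted p = 0.0489), a call that was lost without each library in turn, with the GC correction, without a filter and under other scalings. YAP1 itself stood at 42.1 ± 2.05 FPKM in DON and 45.9 ± 0.548 FPKM in vehicle (adjusted p = 0.243).

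AXL is often described in mesenchymal-like carcinoma cells, so epithelial and mesenchymal genes were listed too, with 3 of 7 higher and 0 lower (median 0.28). SNAI2, a repressor of epithelial genes, rose to 29.7 ± 5.63 FPKM in DON, against 13.2 ± 1.18 FPKM in vehicle (limma adjusted p = 0.00174). ESRP1, an epithelial splicing factor, also rose, to 18.0 ± 0.527 FPKM in DON, against 8.57 ± 0.654 FPKM in vehicle (adjusted p = 0.000299). The junction protein OCLN was at 5.95 ± 0.533 and 4.12 ± 0.697 FPKM in DON and vehicle (adjusted p = 0.0322), a call lost without DON 2, DON 3, vehicle 1 or vehicle 2. The mesenchymal filament VIM was abundant, at 1230 ± 152 FPKM in DON and 1125 ± 125 FPKM in vehicle (adjusted p = 0.475), and TWIST1 stood at 0.01 FPKM in every library.

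**Figure D4:**
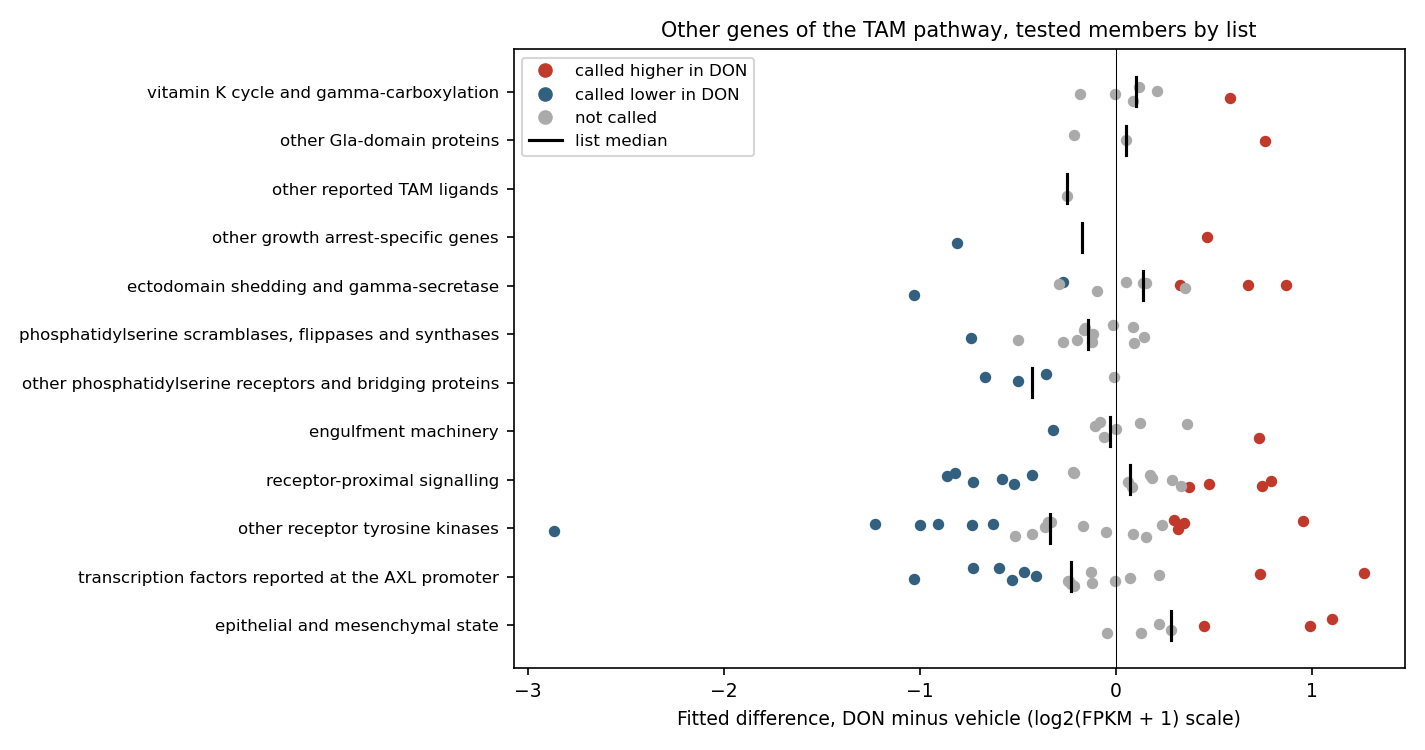
Fitted difference, DON minus vehicle (log2(FPKM + 1) scale), of each tested gene in 12 lists around the TAM family; red points are called higher in DON, blue points lower, grey points not called, and black bars are list medians. List medians lie between -0.43 and 0.28, and FGFR4 at -2.87 is the lowest gene shown.

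For the whole series, the FPKM of all genes added up to 525200 to 556950 in a library, with 11292 to 11474 genes at 1 FPKM or above. The depth in reads is unknown without counts, and steps between low values give only a rough relative depth of 1.257 to 1.705 for the other libraries against vehicle 1, the shallowest. ASNS and HSPA5, known responders to amino acid and endoplasmic reticulum stress, averaged 310 and 770 FPKM in DON and 36.4 and 121 FPKM in vehicle. Of 9 markers of ductal carcinoma epithelium 7 had a value in every library, and none of them was under 1 FPKM, with EPCAM at 1058 ± 137 FPKM in DON and 1090 ± 110 FPKM in vehicle. Of these markers MUC1 and CEACAM6 were lower, at 19.3 ± 0.831 and 212 ± 60.5 FPKM in DON and 42.9 ± 12.4 and 402 ± 132 FPKM in vehicle (limma adjusted p = 0.00452 and 0.0403), and CEACAM6 lost its call without any library other than DON 3. Because GAS6, MERTK and AXL are also made by macrophages, fibroblasts and endothelium, markers of these cells were checked. Of 10 macrophage markers 8 stayed under 1 FPKM in every library, and CSF1R, MRC1, AIF1 and TYROBP were at or near the floor. Of 8 fibroblast markers 7 stayed under 1 FPKM, COL1A1, FAP and THY1 among them, and all 6 endothelial markers did. The exceptions were CD68, LYZ and LUM. CD68 was higher in mean, at 32.8 ± 7.19 FPKM in DON and 22.6 ± 5.72 FPKM in vehicle, with overlapping groups (limma adjusted p = 0.101). It passed as higher without DON 1 (adjusted p = 0.0482), without vehicle 3 (adjusted p = 0.0449) and with a replicate block (adjusted p = 0.0287). In the opposite direction, LYZ had 75.6 to 112 FPKM in DON and 207 to 328 FPKM in vehicle (limma adjusted p = 0.00394), and LUM had 88.1 to 124 and 141 to 171 FPKM (adjusted p = 0.0387). Leaving out any single library ended the call of LUM. Their part in the member values was not tested. Summed macrophage markers were 102 to 152 FPKM in DON and 231 to 357 FPKM in vehicle, nearly all of it LYZ and CD68, of which LYZ was the larger part in every library. Summed fibroblast markers were 88.8 to 124 FPKM in DON and 141 to 172 FPKM in vehicle, nearly all of it LUM, and summed endothelial markers stayed under 1 FPKM.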

How the data were processed

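The authors deposited 1 table of FPKM values per gene symbol and library. Per the submitters' processing notes, the aligner was STAR and the build hg19. No source used here gives the FPKM program, the annotation or the use of strand. Columns named control were taken as vehicle by their number. Tests left out 41 rows in which a library carried a failure mark and no number. Values were transformed to log2(FPKM + 1). The 11471 genes that reached 1 FPKM in 3 or more of 6 libraries were compared, DON minus vehicle, in limma 3.58.1 (R 4.3.3) with an intensity trend and no block, two-sided, with Benjamini-Hochberg adjustment over all tested genes and a threshold of 0.05. The fit was tested on simulated data with independent noise between genes. That setting is simpler than these data, so it checks only the working of the code. Fold ratios are ratios of mean FPKM. Python 3.11.15, pandas 2.3.3 and matplotlib 3.10.9 were used for tables and plots.

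The members and gene lists were chosen with earlier results of these data known. All 221 list entries were found. Named genes are the members, their antisense and pseudogene partners, up to 4 called genes per list by size of change (or the most abundant tested gene where none was called), the nearest profiles, ASNS and HSPA5. GGCX, VKORC1, ADAM10, RHBDF1, MET, ERBB3, INSR, YAP1, WWTR1, TEAD3, VIM and genes named only as absent or as markers were added after their values were seen. Promoter sequences come from RefSeq (GRCh38.p14), all 5 members matched, and gene neighbours from the same assembly. Its coordinates were not joined to hg19. Some results of the profile and neighbour comparisons are not reported here.

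The alternatives changed the pseudocount (0.1 FPKM), the filter (none, or 5 FPKM), the scaling (quantile normalization, or size factors by median of ratios) and the fit (no intensity trend, a block for replicate number, each library left out). A correction for transcript GC content (GENCODE 29; 95.0% of tested genes had a value) and a term for the sign of the second principal component were added after seeing the data.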

Additional observations from a re-analysis of the deposited data

How the results depend on the processing

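GAS6 and PROS1 kept their direction and their call in all 15 alternatives, and AXL kept its direction in all 15 and its call in 11. The members were selected on these same values, so a kept direction or call is no separate support for them. MERTK kept its sign in 11 of 15, around a difference near 0. TYRO3 kept its sign in 14 of 14 and could not be fitted with the filter at 5 FPKM. Over all alternatives the differences ranged from -2.58 to -2.18 for GAS6, -0.91 to -0.79 for PROS1, 0.30 to 0.47 for AXL, -0.15 to 0.06 for MERTK and 0.12 to 0.26 for TYRO3. With a pseudocount of 0.1 FPKM GAS6 went to -2.58, since a smaller pseudocount compresses low values less. The GC correction works within groups, so it leaves differences nearly as they were by construction and acts on the spread.

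Leaving out single libraries gave 2689 to 4636 called genes (4459 with all libraries), 1185 to 2104 higher (2096) and 1504 to 2532 lower (2363). Among the genes of the lists around the TAM family these ranges were 29 to 46 called (46), 12 to 20 higher (20) and 16 to 28 lower (26). The filter at 5 FPKM left 16 lower genes in these lists, with fewer genes tested. Fewer samples enter each of the fits without a library. The labels do not state whether the replicate numbers pair the libraries, and the values here do not settle it. Deviations of same-numbered libraries correlated at 0.25, -0.18 and 0.50 across genes, and with a replicate block 5414 genes were called, 2551 of them higher. The block ended the call of INSR, gave one to CD68 and changed that of no other named gene tested this way. Of 840 checks of named genes that are not members, 745 kept their side of the threshold, 90 lost the call and 5 gained it (LGALS3 and HNRNPUL1 with the term for the second principal component, and CD68 under the block, without DON 1 and without vehicle 3). No called gene changed sign. Depth limits GAS6-AS2 and the other genes under 1 FPKM most, and no counting error could be given.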

Other observations

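Some of the nearest listed protein-coding neighbours of the members, in the order of the RefSeq assembly and added after values were seen, are given here as values. RASA3, a GTPase-activating protein beside GAS6, had 31.4, 29.8 and 30.7 FPKM in DON libraries, against 18.2, 17.0 and 14.6 FPKM in vehicle libraries (0.85 ± 0.10 SE, limma adjusted p = 0.000926). It was higher in every DON library, whereas GAS6 was lower in each. TMEM255B, on the other side, stood at 0.01 FPKM throughout. CYP2S1 and HNRNPUL1, on either side of AXL, were at 42.9 ± 2.16 and 39.3 ± 1.49 FPKM in DON and at 40.8 ± 6.00 and 45.4 ± 1.97 FPKM in vehicle (adjusted p = 0.621 and 0.0797). HNRNPUL1 passed as lower with the term for the second principal component (adjusted p = 0.0248). Beside MERTK, TMEM87B rose to 61.4 ± 1.63 FPKM in DON, against 48.0 ± 3.60 FPKM in vehicle (adjusted p = 0.0174), a call lost without DON 2 (adjusted p = 0.0748), while ANAPC1 was at 5.25 ± 0.140 and 6.23 ± 0.454 FPKM (adjusted p = 0.119).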
